A study of Mus musculus with 8 samples.

Results

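Latrunculin A (LatA) given with soluble antibodies was set against the soluble antibodies alone at the 24 h time point, and each gene's value is its log2 expression with sAb+LatA minus its log2 expression with sAb. The comparison uses 2 of the 8 arrays of the series, 1 for each condition, and every one of the 22180 genes that had a probe set listed with 1 gene symbol was included, whatever its difference. All 8 arrays measured RNA of CD3+ T cells, naive cells purified by negative selection from spleens and lymph nodes of C57BL/6J mice. The sAb+LatA cells received soluble anti-CD3 and anti-CD28 antibodies (sAb) together with LatA for 3 h, were washed and were then cultured up to 24 h. The sAb cells were handled in the same way without LatA. In the methods the soluble antibodies are followed by an anti-hamster IgG. The other arrays hold the same pair harvested at 3 h, immobilized antibodies (iAb) at 3 h and 24 h, LatA without antibody, and untreated naive T cells. The number of mice behind an array is not given in the sources used here. With 1 array for each condition no difference has a replicate error, no test between conditions was possible, and a gene is called higher or lower when the 2 arrays differ by at least 1.5-fold (0.58 on the log2 scale).

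Naive T cells are held in quiescence by transcription factors such as Klf2 and Foxo1 until the T cell receptor (TCR) and CD28 are engaged. Activated cells first express immediate early factors and cytokines, then enlarge while making ribosomes, nucleotides and membrane, and later replicate their DNA and divide. Actin filaments shape the microvilli on which TCRs sit. LatA binds actin monomers and blocks filament assembly, and the pool of free monomers also controls the coactivator MRTF of serum response factor (SRF), which drives genes of the actin cytoskeleton. The study used LatA to bring about loss of microvilli under sAb without a coated surface, so the comparison shows which transcripts differed a day later when actin was disrupted during the stimulation.

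At 24 h many genes of DNA replication, repair and mitosis were higher with sAb+LatA, and a part of the quiescence and lymphoid homing genes, several interferon-induced genes and some chemokines were lower. Background was passed on 1 or both arrays by 12762 genes, of which 231 were higher (1.81%) and 251 were lower (1.97%), with a median difference of 0.01 and an SD of 0.27 over genes. Differences were small: 9 genes were at least 2-fold higher and 15 at least 2-fold lower. Of the 231 higher genes, 75 belonged to the 4 lists of mitotic, kinetochore, recombination and replication genes, and of the 251 lower genes 0 did. In 48 of the higher and 42 of the lower genes the dimmer array was at or below background, so that the size of the difference is only bounded.

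The counts have to be read against the noise of a pair of arrays. The background of an array was the level under which 95% of 1426 chemosensory receptor genes (odorant, taste and vomeronasal) fell, and it lay at 4.77 with sAb+LatA and 4.74 with sAb. These receptor genes themselves gave 44 higher and 45 lower genes (3.09% and 3.16%, SD 0.30), larger shares than among the genes compared. All 1426 were counted and most lay under the background. The genes compared had passed it on 1 or both arrays, so the shares come from unlike ranges of signal. LatA alone against naive T cells, a pair without antibody, gave 110 higher (0.912%) and 143 lower (1.19%) genes of 12055. The shares of the 24 h pair and of the LatA and naive pair were further apart at a mean log2 level of 8 to 10 than below 6. Among genes with a mean log2 level of 8 to 10, the 24 h pair had 52 higher and 69 lower of 3057 (1.70% and 2.26%), and LatA against naive T cells had 8 higher and 2 lower of 2762 (0.29% and 0.0724%). Among genes below 6, the 24 h pair gave 85 higher and 86 lower of 4420 (1.92% and 1.95%). LatA against naive T cells gave 65 higher and 115 lower of 4074 (1.60% and 2.82%). At 10 or above, the 24 h pair gave 3 higher and 9 lower of 570 (0.526% and 1.58%). There LatA against naive T cells gave 1 higher and 0 lower of 570 (0.175% higher).

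**Figure D1:**
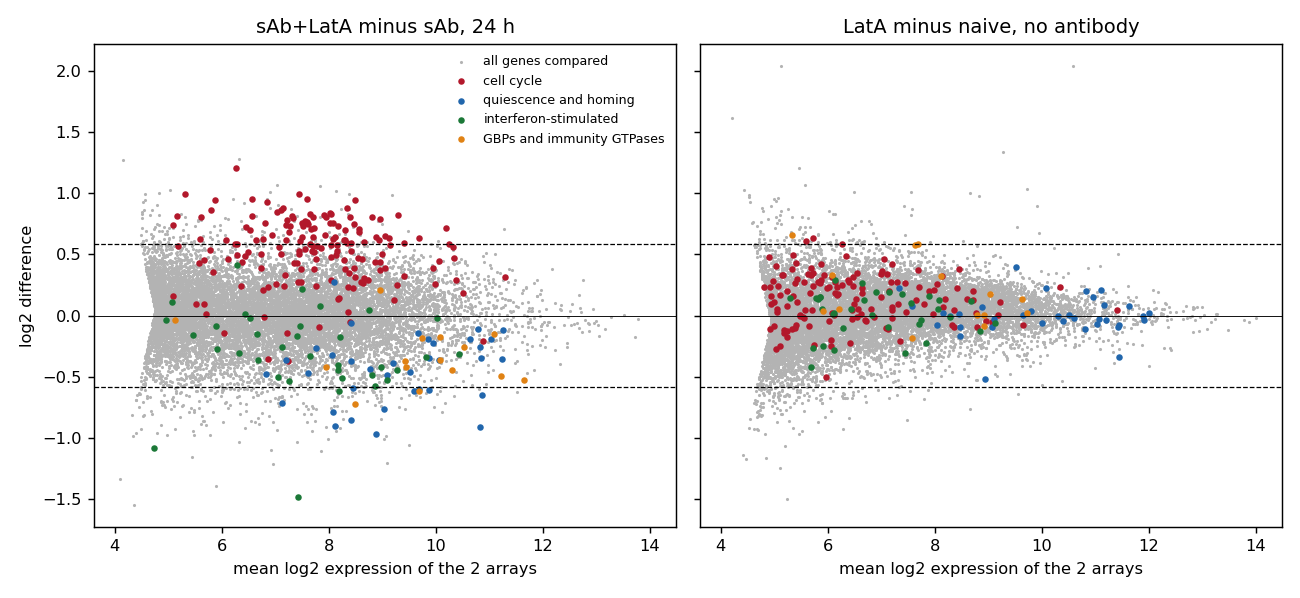
Log2 difference (y) against the mean log2 expression of the 2 arrays (x) for sAb+LatA minus sAb at 24 h (left) and LatA minus naive (right); each point is a gene, colours mark gene lists and dashed lines mark 1.5-fold. The cell cycle genes (red) lie mostly above 0 at 24 h over a wide range of levels, and the spread of the LatA minus naive pair narrows as the level increases.

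The T cell label was checked on 10 measured T cell markers, which were above background on all 8 arrays and of which 0 differed by 1.5-fold between sAb+LatA and sAb. Cd3e, a signalling chain of the TCR complex, had log2 levels of 11.74 with sAb+LatA and 11.70 with sAb. The coreceptor Cd4 had 10.69 with sAb+LatA and 10.80 with sAb, and Cd8a had 11.20 with sAb+LatA and 11.07 with sAb. Of 9 measured B cell markers, 4 were above background with sAb+LatA and 5 with sAb, with a summed linear level of 289.0 with sAb+LatA and 362.0 with sAb. Of 15 myeloid and dendritic cell markers, 8 were above background with sAb+LatA and 6 with sAb, with sums of 516.7 with sAb+LatA and 519.2 with sAb, and 2 of them were above background with sAb+LatA but not with sAb: Csf1r was at least 1.41-fold higher and Flt3 at least 1.14-fold higher. NK cell, erythroid, platelet, stromal and endothelial markers gave 0 genes past 1.5-fold. Il2ra (CD25), a mark of T cell activation, was at 11.29 with sAb+LatA, 11.09 with iAb, 11.10 with sAb and 8.21 in naive T cells.

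Among the regulators of mitosis, the list of mitotic kinases, motor proteins and cytokinesis genes had the highest share of members past 1.5-fold of all lists with at least 6 members compared. Of 51 members compared 31 were higher and 0 lower, with a median difference of 0.63, against 1.81% higher and a median of 0.01 over all genes. Nek2, a kinase of centrosome separation, had a log2 level of 6.88 with sAb+LatA, 6.99 with iAb and 5.67 with sAb, a 2.31-fold difference between sAb+LatA and sAb. Plk1, the polo-like kinase that drives mitotic entry, was at 8.97 with sAb+LatA, 8.97 with iAb and 8.03 with sAb. Both stood at the level of iAb on the sAb+LatA array and about a log2 unit lower on the sAb array. Anln, a scaffold of the contractile ring, was at 7.32 with sAb+LatA and 6.39 with sAb (1.91-fold). Ckap2l, a spindle protein, was at 6.34 with sAb+LatA and 5.40 with sAb, and Ncapg2, a condensin subunit, at 8.78 with sAb+LatA and 7.90 with sAb. The proliferation antigen Mki67 was at 10.55 with sAb+LatA, 10.53 with iAb and 9.83 with sAb (1.65-fold). Members below 0 included Cdc25b (−0.36), a phosphatase that activates mitotic CDK, and the condensin subunit Smc4 (−0.21). In RNA of a whole population, more dividing cells and more of these transcripts in each cell cannot be told apart.

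Quiescent mouse and human cells keep mitotic genes silent through the DREAM complex, which binds the letters TTTGAA known as the cell cycle genes homology region, and many of these genes also carry CCAAT boxes bound by the activator NF-Y. The promoters of this list are shown because it led the comparison. RefSeq promoter windows (GRCm38.p6, from 250 bases before to 50 bases after the transcription start) were found for 44 of the 51 members and gave 47 windows. Searched on both strands, TTTGAA occurred in 76.6% of these windows against 17.9% of all 32851, CCAAT in 68.1% against 37.4%, and both in 63.8% against 6.95%. The kinetochore list had TTTGAA in 44.1% and CCAAT in 76.5% of 34 windows, and the replication list had TTTGAA in 8 and CCAAT in 30 of 57 windows. A match is a description of the sequence and not a measured binding site. The windows of the 3 members with the largest differences that held both motifs follow, 5′ to 3′ on the strand of the gene, with TTTGAA and CCAAT on either strand in capitals: Ckap2l at chr2:129297163-129297462 (minus strand), Plk1 at chr7:122159185-122159484 (plus strand) and Kif18b, a kinesin that trims spindle microtubules, at chr11:102925075-102925374 (minus strand).
Ckap2l: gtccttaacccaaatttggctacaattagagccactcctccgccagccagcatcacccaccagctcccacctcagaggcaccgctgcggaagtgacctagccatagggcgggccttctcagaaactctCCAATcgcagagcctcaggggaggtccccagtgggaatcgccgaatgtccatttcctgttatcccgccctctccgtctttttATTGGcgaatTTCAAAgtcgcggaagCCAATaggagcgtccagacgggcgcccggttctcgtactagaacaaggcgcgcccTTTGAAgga
Plk1: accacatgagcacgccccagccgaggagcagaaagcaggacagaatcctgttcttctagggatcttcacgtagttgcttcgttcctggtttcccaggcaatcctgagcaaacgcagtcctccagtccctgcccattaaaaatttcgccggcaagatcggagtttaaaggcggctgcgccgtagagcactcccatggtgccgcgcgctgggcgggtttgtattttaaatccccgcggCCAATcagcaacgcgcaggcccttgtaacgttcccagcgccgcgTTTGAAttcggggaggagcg
Kif18b: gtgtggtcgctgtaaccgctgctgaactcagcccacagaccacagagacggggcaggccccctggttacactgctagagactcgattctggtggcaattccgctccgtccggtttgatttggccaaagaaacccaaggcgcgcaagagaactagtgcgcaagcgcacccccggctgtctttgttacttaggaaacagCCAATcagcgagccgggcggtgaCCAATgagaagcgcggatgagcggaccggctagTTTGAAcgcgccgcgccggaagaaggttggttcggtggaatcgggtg

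Kinetochore and spindle checkpoint genes were higher in 18 of 36 members and lower in 0, with a median of 0.58, where 1.81% of all genes were higher. Spc25, a subunit of the NDC80 complex that holds microtubules, had a log2 level of 7.04 with sAb+LatA, 7.11 with iAb and 6.08 with sAb (1.94-fold). Cenpe, a kinetochore motor, was at 8.06 with sAb+LatA, 8.08 with iAb and 7.11 with sAb. Sgo2a, a shugoshin that protects centromeric cohesion, was at 5.81 with sAb+LatA and 4.81 with sAb, the second value close to background. Bub1, a checkpoint kinase, was at 7.73 with sAb+LatA, 8.44 with iAb and 6.91 with sAb, so for this gene the iAb array stood above both. Against iAb, sAb+LatA had 0 of 36 members of this list higher and 4 lower (median −0.20), where 1.06% of all 12708 genes were higher and 0.96% lower. Ska3, at 6.23 with sAb+LatA and 6.86 with iAb, was one of them.

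The genes of homologous recombination and of the Fanconi pathway, which repair broken and crosslinked DNA during S phase, were higher in 11 of 21 members and lower in 0 (median 0.62). Rad54l, a motor on recombination filaments, was at 7.93 with sAb+LatA, 8.02 with iAb and 6.94 with sAb (1.99-fold), and Brca2, a mediator of recombination, at 7.58 with sAb+LatA, 7.82 with iAb and 6.70 with sAb. All 21 members were above 0. DNA replication and licensing genes were higher in 15 of 58 members and lower in 0 (median 0.46), with 56 members above 0. The shares higher were 52.4% of recombination and 25.9% of replication genes, against 1.81% of all genes. Pola1, the catalytic subunit of DNA polymerase alpha, was at 8.45 with sAb+LatA, 8.55 with iAb and 7.61 with sAb (1.79-fold), and Cdc45, a part of the replicative helicase, at 8.11 with sAb+LatA, 8.32 with iAb and 7.31 with sAb. Of 11 replication-dependent histone genes compared, 1 was higher, H4c9 at 8.04 with sAb+LatA and 7.43 with sAb (1.53-fold), and the median was 0.36.

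Regulators of the G1 to S step included members in both directions. Among 35 genes of cyclins, CDKs, E2F factors and their inhibitors, 5 were higher and 4 were lower (median 0.26). For comparison, 1.81% of all genes were higher and 1.97% lower, so both counts were above these shares. The 5 higher members were E2f8, an atypical E2F that represses E2F targets, at 8.65 with sAb+LatA and 7.63 with sAb (2.03-fold), the activator E2f2 at 7.73 with sAb+LatA and 6.85 with sAb, the S phase cyclin Ccne1 at 8.67 with sAb+LatA and 7.79 with sAb, the ubiquitin ligase subunit Skp2 (0.70) and the CDK subunit Cks2 (0.66). The 4 lower members were the CDK inhibitor Cdkn1b at 8.62 with sAb+LatA, 8.60 with iAb and 9.32 with sAb, the antiproliferative factors Btg1 (8.64 with sAb+LatA and 9.41 with sAb) and Btg2 (8.16 with sAb+LatA and 8.75 with sAb), and Ccng2 (7.21 with sAb+LatA and 7.95 with sAb). Other genes among the 15 highest were not members of a list: Shcbp1, a protein of the cytokinetic midbody, at 7.58 with sAb+LatA and 6.51 with sAb, the spindle protein Spag5 at 7.42 with sAb+LatA and 6.40 with sAb, Neil3, a DNA glycosylase, at 6.69 with sAb+LatA and 5.74 with sAb, and Fignl1, a recombination protein, at 8.37 with sAb+LatA and 7.31 with sAb. Among them were also Nt5dc2, at 8.88 with sAb+LatA and 7.88 with sAb, and the sulfotransferase Chst2, at 7.33 with sAb+LatA and 6.38 with sAb. The highest of all 15 was Ccdc141, at 6.96 with sAb+LatA, 7.18 with iAb and 5.68 with sAb (2.43-fold).

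**Figure D2:**
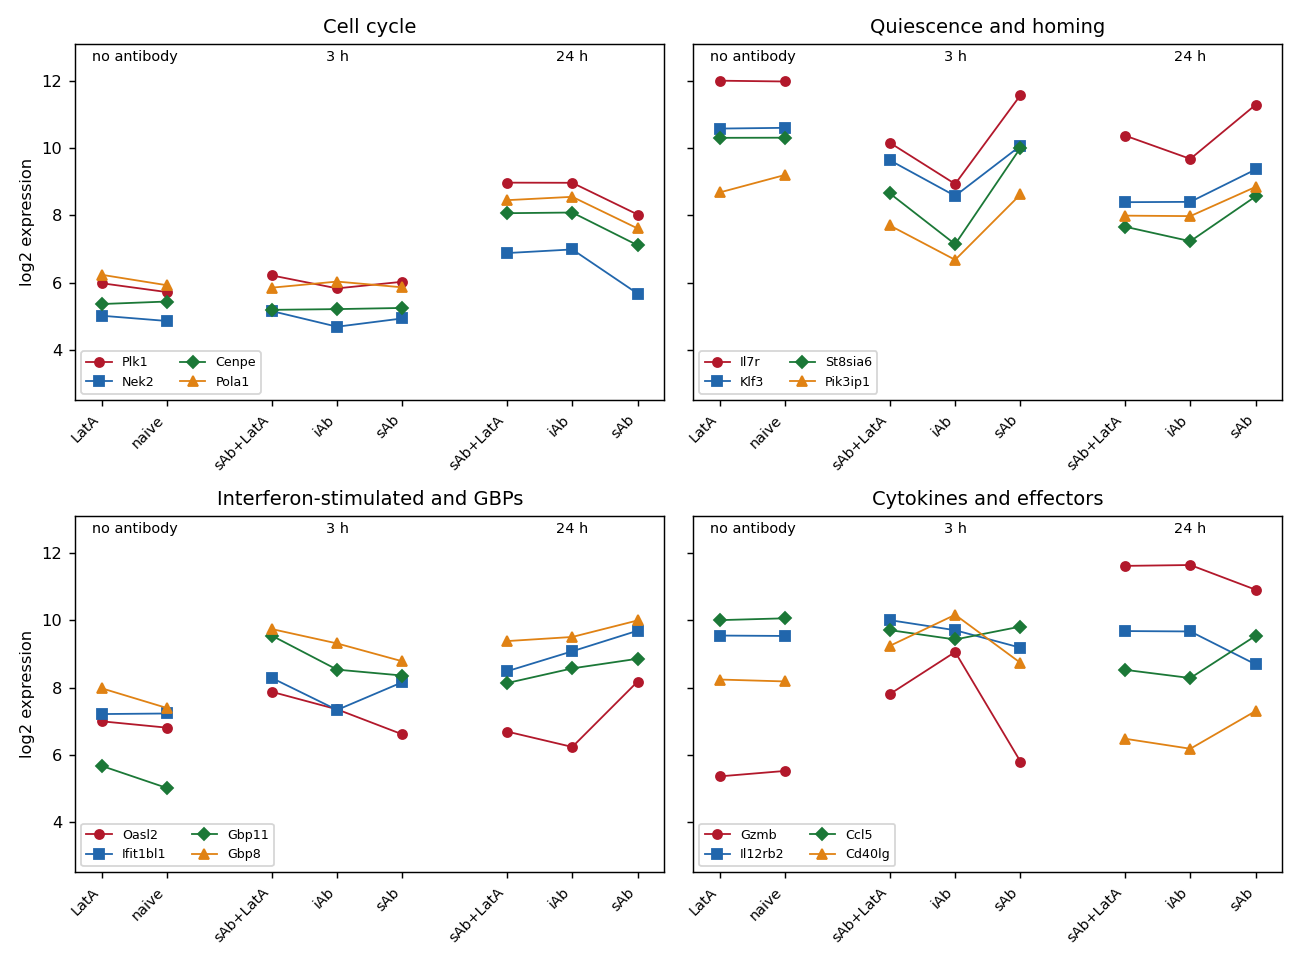
Log2 expression (y) of 16 genes on the 8 arrays (x, 1 array a point), in 3 blocks without antibody, at 3 h and at 24 h; lines join the arrays of a block. At 24 h the cell cycle genes were lower with sAb than with sAb+LatA and iAb, and Il7r, Klf3, St8sia6 and Pik3ip1 were higher with sAb.

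Most growth pathways had medians above 0 and few or 0 members past 1.5-fold. Ribosome biogenesis had 0 of 71 members past 1.5-fold in either direction, yet all 71 were above 0, with a range of 0.01 to 0.57 and a median of 0.27. The largest was Rrs1, a factor of large subunit assembly, at 8.16 with sAb+LatA, 8.03 with iAb and 7.59 with sAb. Aminoacyl-tRNA synthetases had a median of 0.24 (27 of 34 above 0), glucose uptake and glycolysis 0.25 (16 of 21), heat shock proteins and chaperonins 0.21 (17 of 18) and respiratory chain complexes II to V 0.14 (31 of 36), each with 0 members past 1.5-fold. Cytosolic ribosomal proteins, whose mRNAs are abundant in resting cells, had a median of −0.03 over 53 genes, with 1 higher (0 with values raised to the background). That share of 1.89% was close to the 1.81% of all genes. Fatty acid oxidation had a median of −0.02 over 24.

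Nucleotide synthesis was higher in 4 of 32 members (12.5%, against 1.81% of all genes) and lower in 0 (median 0.33). The 4 were the enzymes of deoxynucleotide supply. Tyms, thymidylate synthase, was at 8.82 with sAb+LatA, 8.62 with iAb and 7.95 with sAb (1.83-fold). The ribonucleotide reductase subunits Rrm2 and Rrm1 were at 8.78 and 10.35 with sAb+LatA, against 7.95 and 9.74 with sAb, and thymidine kinase Tk1 was at 8.24 with sAb+LatA against 7.43 with sAb. Shmt2, a mitochondrial enzyme of one-carbon supply, stayed within 1.5-fold at 11.19 with sAb+LatA and 10.68 with sAb. In lipid synthesis, Mvd, an enzyme of the mevalonate pathway, was the 1 of 19 cholesterol genes that was higher (7.66 with sAb+LatA, 7.22 with iAb and 7.03 with sAb), and the list's median was 0.31. Fatty acid synthesis had a median of 0.16 over 21 members. Its 1 higher member was Fads2, a desaturase of polyunsaturated fatty acids, at 5.55 with sAb+LatA and not above background with sAb (4.52), which gives a difference of at least 1.76-fold. Fatty acid synthase Fasn was at 9.86 with sAb+LatA, 9.73 with iAb and 9.32 with sAb (1.45-fold). The serine pathway gene Phgdh was at 7.97 with sAb+LatA and 7.36 with sAb, and the amino acid transporter Slc7a5 at 10.35 with sAb+LatA and 9.80 with sAb.

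**Figure D3:**
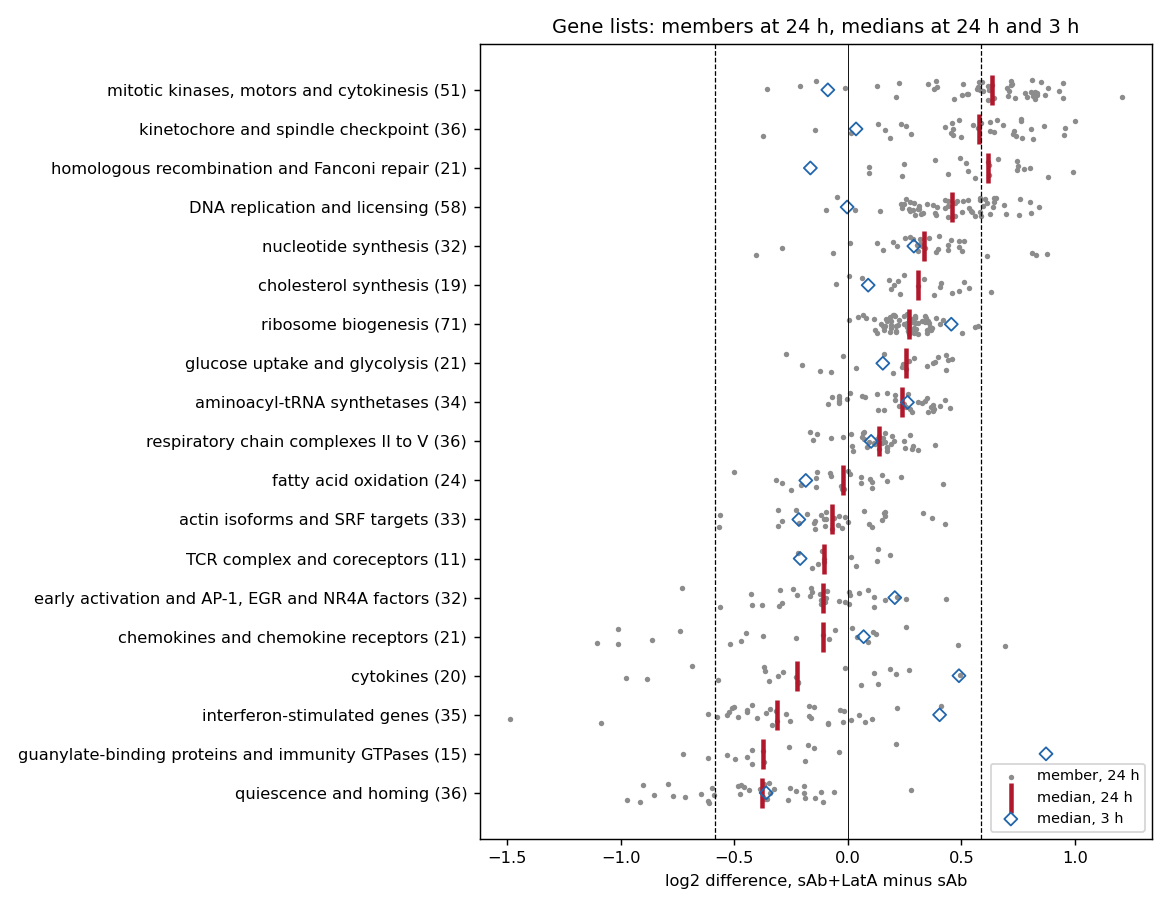
Log2 difference sAb+LatA minus sAb (x) of the members of 19 gene lists (rows, members compared at 24 h in brackets); grey points are members at 24 h, red bars the medians at 24 h, blue diamonds the medians at 3 h, and dashed lines mark 1.5-fold. The cell cycle medians stand between 0.46 and 0.63 at 24 h, and the interferon and GBP medians lie on opposite sides of 0 at the 2 times.

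The genes of quiescence and homing were lower in 12 of 36 members and higher in 0, with a median of −0.38, where 1.97% of all genes were lower. Il7r, the receptor of the survival cytokine IL-7, had a log2 level of 10.37 with sAb+LatA, 9.68 with iAb and 11.29 with sAb at 24 h, a 1.89-fold difference between sAb+LatA and sAb, and stood at 11.98 in naive T cells. Klf3, a Krüppel-like repressor, was at 8.39 with sAb+LatA, 8.40 with iAb, 9.37 with sAb and 10.61 in naive T cells. The sAb array stayed nearest to naive T cells in both genes. St8sia6, a sialyltransferase, was at 7.66 with sAb+LatA, 7.23 with iAb and 8.57 with sAb, and Pik3ip1, an inhibitor of PI3 kinase, at 7.99 with sAb+LatA, 7.98 with iAb and 8.85 with sAb. The exit receptor S1pr1 was at 9.57 with sAb+LatA, 9.37 with iAb and 10.18 with sAb, and Klf2, which drives its transcription, at 9.29 with sAb+LatA, 8.73 with iAb and 9.90 with sAb. The chemokine receptor Ccr7, which guides naive cells to lymph nodes, was at 10.74 with sAb+LatA and 10.85 with sAb, and Foxo1 at 9.60 with sAb+LatA and 9.74 with sAb, both within 1.5-fold. Bcl6, the regulator of follicular helper cells, was among the genes lower with LatA, at 6.57 with sAb+LatA, 6.69 with iAb and 7.50 with sAb (1.91-fold).

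LatA differences at 24 h followed the size of the response to iAb, on arrays that the 24 h pair does not share. Of 282 genes at least 4-fold higher with iAb at 24 h than in naive T cells, 106 were higher with sAb+LatA than with sAb (37.6%), 2 were lower and 258 were above 0, with a median of 0.51. Of 1085 genes between 2-fold and 4-fold higher with iAb, 44 were higher and 8 lower (median 0.24). Among the 10848 genes within 2-fold the shares were 0.728% higher and 1.45% lower. Of 460 genes between 2-fold and 4-fold lower with iAb, 63 were lower (13.7%) and 1 higher (median −0.29), and of 87 genes at least 4-fold lower, 21 were lower (24.1%) and 1 higher (median −0.38). These classes rest on 1 iAb array and 1 naive array and are a description.

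**Figure D4:**
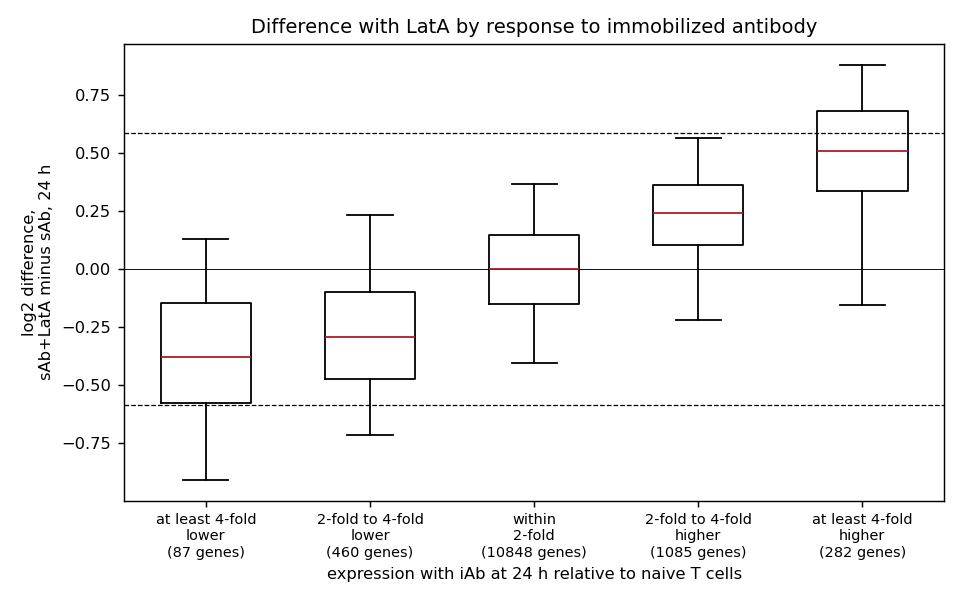
Log2 difference sAb+LatA minus sAb at 24 h (y) for genes grouped by their level with iAb at 24 h relative to naive T cells (x, number of genes in brackets); boxes reach the lower and upper quartiles, red lines are medians and whiskers reach the 5th and 95th percentiles. The median is −0.38 in the genes at least 4-fold lower with iAb and 0.51 in those at least 4-fold higher.

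Interferon-stimulated genes, which cells switch on against viruses, were lower in 3 of 35 members and higher in 0 at 24 h (median −0.31, with 29 members below 0). The share lower was 8.57%, against 1.97% of all genes. Oasl2, a member of the oligoadenylate synthetase family, had the largest negative difference of the 15 lowest genes, at 6.69 with sAb+LatA, 6.23 with iAb and 8.18 with sAb (2.80-fold lower than with sAb). Ifit3b was not above background with sAb+LatA (4.19) and was at 5.27 with sAb, at least 1.41-fold lower, a bound that does not reach 1.5-fold, so with values raised to the background 2 members of the list were lower. Ddx58, which encodes the RNA sensor RIG-I, was at 7.88 with sAb+LatA, 7.90 with iAb and 8.49 with sAb. Further genes among the 15 lowest are known interferon targets outside the list: Ifit1bl1 at 8.49 with sAb+LatA, 9.08 with iAb and 9.69 with sAb (2.31-fold lower), Ddx60 at 5.81 with sAb+LatA, 5.98 with iAb and 6.85 with sAb, and Ifi214 at 6.37 with sAb+LatA, 6.78 with iAb and 7.47 with sAb. Other members stayed within 1.5-fold: Isg15, a ubiquitin-like modifier, was at 6.52 with sAb+LatA and 6.54 with sAb, and Cmpk2 was at 6.48 with sAb+LatA and 6.07 with sAb.

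Interferon signalling ends in the factor ISGF3, which binds a pair of GAAA letters with 2 bases between them (the interferon-stimulated response element). RefSeq windows were found for 27 of the 35 interferon-stimulated members, and 54.5% of their 33 windows held this spacing on either strand, against 3.44% of all windows and 4.26% of those of the mitotic list. The windows of the 2 members with the largest differences that held it are printed 5′ to 3′ on the strand of the gene, with the element in capitals as it reads there (TTTC pairs where it lies on the other strand): Ifit3b at chr19:34607707-34608006 (plus strand) and Ddx58 at chr4:40239776-40240075 (minus strand).
Ifit3b: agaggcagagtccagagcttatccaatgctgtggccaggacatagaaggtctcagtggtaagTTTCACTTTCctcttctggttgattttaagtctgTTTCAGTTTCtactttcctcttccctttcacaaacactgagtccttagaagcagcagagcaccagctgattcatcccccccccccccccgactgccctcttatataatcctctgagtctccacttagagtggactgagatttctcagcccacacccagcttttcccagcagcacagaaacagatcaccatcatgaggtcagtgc
Ddx58: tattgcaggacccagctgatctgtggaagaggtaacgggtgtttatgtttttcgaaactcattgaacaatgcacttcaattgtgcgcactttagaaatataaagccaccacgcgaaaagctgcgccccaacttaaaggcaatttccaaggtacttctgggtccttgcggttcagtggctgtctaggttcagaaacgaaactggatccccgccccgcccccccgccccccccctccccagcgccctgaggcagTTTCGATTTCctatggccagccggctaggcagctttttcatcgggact

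Guanylate-binding proteins and immunity-related GTPases, induced by interferon gamma, were lower in 2 of 15 members and higher in 0 at 24 h (median −0.37). The share lower was 13.3%, against 1.97% of all genes. Gbp11 was at 8.13 with sAb+LatA, 8.57 with iAb and 8.86 with sAb (1.65-fold lower), and Gbp8 at 9.38 with sAb+LatA, 9.51 with iAb and 10.00 with sAb. Irf8, an interferon regulatory factor placed in the same list, was the 1 member above 0, at 9.07 with sAb+LatA and 8.86 with sAb. Gbp genes are close relatives, and probes may not separate them fully. Ifng itself, the gene of interferon gamma, did not differ by 1.5-fold at 24 h, with 7.34 on the sAb+LatA array, 7.25 on the iAb array and 7.28 on the sAb array.

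Among cytokines, chemokines and surface ligands, most genes past 1.5-fold were lower. Over all genes, 1.97% were lower and 1.81% higher. Of 20 cytokine genes compared 3 were lower and 0 higher (median −0.23, and 0.06 with a stricter background). Il17f was at 5.17 with sAb+LatA, 5.12 with iAb and 6.05 with sAb (1.85-fold lower), the death ligand Fasl at 5.45 with sAb+LatA, 5.68 with iAb and 6.13 with sAb, and Il9 was not above background with sAb+LatA and was at 5.47 with sAb (at least 1.62-fold lower). Il2 was not above background on any of these 24 h arrays. Of 21 chemokine and chemokine receptor genes 5 were lower and 1 was higher. Ccl22, a ligand of CCR4, was at 7.31 with sAb+LatA, 7.06 with iAb and 8.41 with sAb (2.15-fold lower). Ccl5 was at 8.53 with sAb+LatA and 9.54 with sAb, and the receptors Cxcr6 and Cxcr4 at 7.47 and 7.79 with sAb+LatA, against 8.49 and 8.53 with sAb. The inflammatory chemokine Ccl3 went the other way, at 9.82 with sAb+LatA, 10.05 with iAb and 9.13 with sAb. Cd40lg, the ligand through which T cells help B cells, was at 6.48 with sAb+LatA, 6.18 with iAb and 7.30 with sAb (1.77-fold lower).

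Of 20 cytotoxic effector genes, 1 was higher and 1 lower, where 1.81% of all genes were higher and 1.97% lower. Gzmb, the protease granzyme B, was at 11.62 with sAb+LatA, 11.65 with iAb and 10.91 with sAb (1.64-fold), while Klrd1, an NK receptor chain, was at 7.67 with sAb+LatA, 7.78 with iAb and 8.62 with sAb. Of 25 cytokine receptor genes, 2 were higher and 2 lower (median −0.05). The higher ones were both chains of the IL-12 receptor, which directs Th1 and cytotoxic differentiation: Il12rb2 at 9.68 with sAb+LatA, 9.67 with iAb and 8.69 with sAb (1.99-fold), and Il12rb1 at 8.52 with sAb+LatA, 8.49 with iAb and 7.85 with sAb. The lower ones were Il7r and Il18r1, a chain of the IL-18 receptor, at 7.05 with sAb+LatA, 6.93 with iAb and 7.66 with sAb. Tbx21, the transcription factor of Th1 cells, was at 8.51 with sAb+LatA and 8.13 with sAb. The TCR complex and its coreceptors had 0 of 11 members past 1.5-fold (median −0.11), and proximal TCR signalling 0 of 27 (median −0.12). Early activation factors had 1 of 32 lower (3.12%, close to the 1.97% of all genes). It was the NF-κB inhibitor Tnfaip3, at 8.49 with sAb+LatA and 9.22 with sAb. Myc was at 10.52 with sAb+LatA and 10.43 with sAb.

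Genes of the actin cytoskeleton differed little at 24 h. Actin isoforms and SRF targets had 0 of 33 members past 1.5-fold, with a median of −0.07. Actb, beta-actin, was at 11.05 with sAb+LatA and 11.12 with sAb at 24 h, and at 10.07 with sAb+LatA and 10.78 with sAb at 3 h. Actg1, gamma-actin, was at 10.91 with sAb+LatA and 11.06 with sAb at 24 h, and at 10.27 with sAb+LatA and 10.96 with sAb at 3 h. Srf was at 8.21 with sAb+LatA and 8.31 with sAb at 24 h, and at 7.63 with sAb+LatA and 8.01 with sAb at 3 h. Actb and Actg1 were thus past 1.5-fold at 3 h only, and the difference between the times was not tested. Among 44 actin assembly regulators Rflnb, a filamin-binding protein, was the 1 lower at 24 h (7.70 with sAb+LatA, 7.55 with iAb and 8.61 with sAb). At 3 h Rflnb was at 7.02 with sAb+LatA, 5.74 with iAb and 9.25 with sAb. The list's share of 2.27% lower at 24 h was close to the 1.97% of all genes. Of 16 microvillus and ezrin-radixin-moesin genes the integrin Itga4 was lower, at 9.31 with sAb+LatA, 9.23 with iAb and 9.96 with sAb, and 0 were higher.

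At 3 h, on arrays separate from the 24 h pair, sAb+LatA had 309 higher (2.45%) and 428 lower (3.39%) genes of 12633 against sAb. The cell cycle lists did not stand apart at that time: mitotic genes had a median of −0.09 with 0 higher and 2 lower of 42, kinetochore genes 0.04, recombination genes −0.17 and replication genes 0.00. Ribosome biogenesis was further above 0 at 3 h than at 24 h, with a median of 0.46 and 18 of 71 members higher. Quiescence and homing genes had a median of −0.36 with 10 of 36 lower and 0 higher at 3 h. Il7r was at 10.16 with sAb+LatA, 8.93 with iAb and 11.58 with sAb at 3 h, so the ordering of the 3 arrays was the same as at 24 h. Interferon-stimulated genes had a median of 0.40 with 8 of 35 higher at 3 h, and the guanylate-binding list 0.87 with 9 of 15 higher. Cytokines had a median of 0.49 with 8 of 20 higher. Oasl2 at 3 h was at 7.87 with sAb+LatA and 6.61 with sAb, Gbp11 at 9.55 with sAb+LatA and 8.36 with sAb, and Ifng at 7.05 with sAb+LatA and 5.24 with sAb. For these genes sAb+LatA stood above sAb at 3 h. Across 12237 genes compared at both times the 2 differences had Pearson's r of 0.29 and Spearman's rho of 0.31. This is a description across genes, which are not independent replicates, and both times used the same probe sets. Of 234 genes lower at 24 h, 47 were also lower at 3 h (20.1%, and 11.7% of the 402 lower at 3 h), while of 185 higher at 24 h, 10 were also higher at 3 h (5.41%, and 3.50% of 286).

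**Figure D5:**
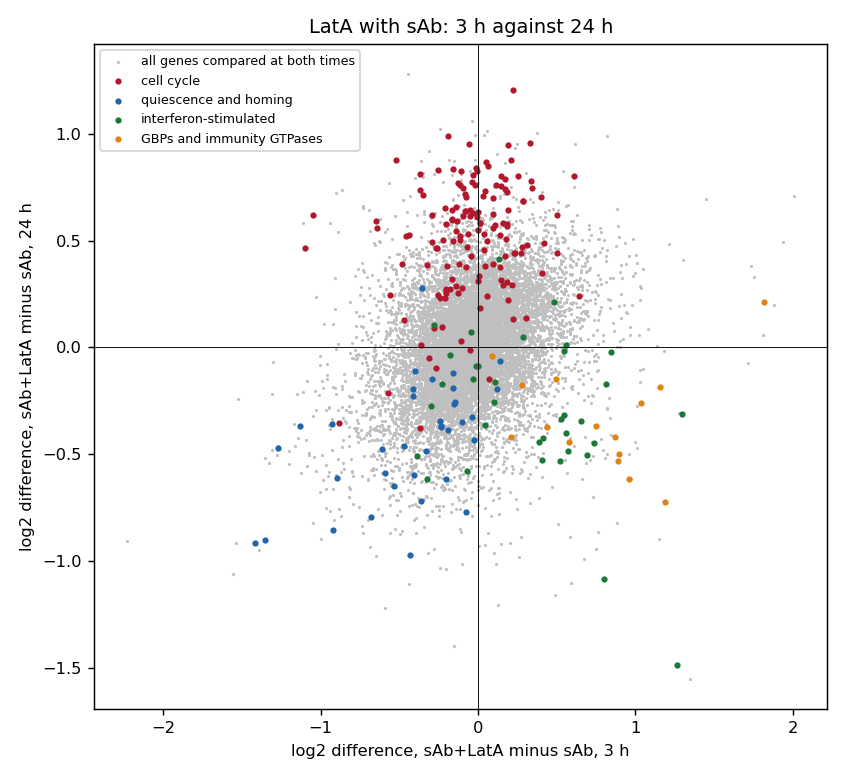
Log2 difference sAb+LatA minus sAb at 24 h (y) against that at 3 h (x), with 1 point a gene and the gene lists in colour. Cell cycle genes (red) lie mostly above 0 at 24 h and around 0 at 3 h, quiescence genes (blue) lie mostly below 0 at both times, and the interferon-stimulated genes and GBPs lie mostly below 0 at 24 h with medians of 0.40 and 0.87 at 3 h.

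Taken over all genes, the 24 h differences were not mirrored in the pair of LatA and naive T cells. Across 11805 genes the difference LatA minus naive and the 24 h difference had r of 0.01 and rho of 0.01. Quiescence and homing genes had 0 of 36 members past 1.5-fold and a median of −0.01. Mitotic genes had 0 of 40 past 1.5-fold with a median of 0.18 and 30 above 0. Kinetochore genes had 1 of 26 higher with a median of 0.25 and 21 above 0. Replication genes had 39 of 56 above 0 with a median of 0.08. These medians lay on the same side of 0 as at 24 h and were smaller. Some of the genes lay near background, such as Nek2 at 4.86 in naive T cells, where the background was 4.96. Plk1 was at 5.98 with LatA and 5.72 in naive T cells. The LatA array is labelled as a control time and the methods place its harvest at 3 h, so an array of LatA alone at 24 h was not analysed here.

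Set beside iAb at 24 h, the sAb+LatA array held 135 higher (1.06%) and 122 lower (0.96%) genes of 12708. Median differences from iAb were −0.16 for mitotic genes, with 0 higher and 2 lower, −0.11 for DNA replication, 0.01 for ribosome biogenesis and 0.02 for quiescence and homing, with 1 higher, Il7r. Interferon-stimulated genes stood at 0.09 and the guanylate-binding list at −0.12, both with 0 members past 1.5-fold.

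Genes of MHC class II and of B cells were also among the lower ones, and their levels are given side by side. H2-Ob was at 6.35 with sAb+LatA, 6.28 with iAb and 7.57 with sAb (2.33-fold lower), and H2-Ab1, the beta chain of I-A, at 6.89 with sAb+LatA, 7.39 with iAb and 7.92 with sAb. The B cell marker Fcer2a, the low-affinity IgE receptor, was at 5.30 with sAb+LatA, 5.32 with iAb and 6.28 with sAb (1.97-fold lower). Cd79a was not above background with sAb+LatA (4.73) and was at 5.53 with iAb and 5.41 with sAb, at least 1.56-fold lower with sAb+LatA than with sAb, while Cd79b was at 6.48 with both sAb+LatA and sAb. The part of other cells in these differences was not tested. Ptgs2, the inducible cyclooxygenase, was at 5.20 with sAb+LatA, 5.41 with iAb and 6.60 with sAb (2.64-fold lower). Trat1, an adaptor of the TCR complex, was at 8.57 with sAb+LatA and 9.56 with sAb. Of the remaining genes among the 15 lowest, Slc28a2b, a nucleoside transporter, was at 8.96 with sAb+LatA and 10.02 with sAb, App, the amyloid precursor protein, had a difference of −0.98, and Zfp273 was not above background with sAb+LatA and was at 4.78, close to background, with sAb.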

How the data were processed

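The deposited table holds log2 expression values that, per the labels and methods, the authors computed from Affymetrix Mouse Gene ST 2.0 arrays by the robust multi-array average (background correction, quantile normalization across arrays and summary of probes). The log2 scale is not stated in the sources used here and was read from the values, which ran from 1.20 to 14.3 with array medians of 4.74 to 4.94. Of 41345 probe sets, the platform annotation gave 23521 with 1 gene symbol, 1820 with several and 16004 not listed, and the last groups were not used. These made 22180 genes, of which 1082 had several probe sets and were represented by the one with the highest mean over the 8 arrays. RefSeq held 23328 of the probe sets' gene IDs and changed 0 symbols.

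Differences are sAb+LatA minus sAb on the log2 scale, with 1 array on each side, so p-values, standard errors and tests were not possible, and precision is limited by how few arrays there are. Genes above background on 1 or both arrays were compared, and called at 1.5-fold. A gene not above background on 1 side has only a bound, written as at least N-fold and computed against that array's background. The comparison and the 47 gene lists (1357 genes, 1213 measured) were chosen with earlier results of these data known. Genes named were the 15 highest and 15 lowest (leaving out predicted and clone-named genes, receptor and immunoglobulin segments, microRNAs, small nuclear and nucleolar RNAs and pseudogenes), up to 5 of each list with the largest differences, and 13 fixed genes of actin, activation and T cell identity. Btg2, Ccl3, Ccr7, Cdc25b, Cdkn1b, Cks2, Cmpk2, Foxo1, Irf8, Isg15, Kif18b, Klf2, S1pr1, Skp2 and Smc4 lay outside this rule and were named after their values were seen. Genes without a probe set of 1 symbol were not analysed here. The iAb and LatA arrays served for levels set side by side. The submitters label the time of the LatA array as a control and the methods give 3 h.

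Alternatives changed the fold threshold, the background, the scaling and the choice of probe set. Scripts (Python 3.11.15, pandas 2.3.3, numpy 2.4.6, scipy 1.17.1, matplotlib 3.10.9) were tested on simulated data.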

Additional observations from a re-analysis of the deposited data

Results flagged for a closer look

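The interferon-stimulated genes had a median log2 difference of −0.31 between sAb+LatA and sAb at 24 h, and 0.40 at 3 h. The guanylate-binding proteins and immunity GTPases had −0.37 at 24 h and 0.87 at 3 h. Both lists stood on opposite sides of 0 at the 2 times, with 1 array for each condition and time, and the difference between the times was not tested. Oasl2 had a difference of −1.49 at 24 h and 1.27 at 3 h, and Gbp11 −0.72 at 24 h and 1.19 at 3 h.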

How the results depend on the processing

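No paired analysis was possible because each condition had 1 array, and for the same reason no array could be left out. At a 2-fold threshold 9 genes were higher and 15 lower, and the members past it numbered 1 of the mitotic list and 0 of the kinetochore, recombination, replication, quiescence (lower) and guanylate-binding (lower) lists. The share of higher among called genes was 47.9% at 1.5-fold, 37.5% at 2-fold and 54.6% after renewed quantile normalization. Without the background filter 401 genes were higher and 388 lower. A stricter background, median centring, renewed quantile normalization and the mean of a gene's probe sets, and values raised to the background (chosen after seeing the data), gave 164 to 259 higher and 195 to 243 lower genes. Median centring removed a shift of −0.0039 from the differences. List medians were recomputed 264 times, over 44 lists and 6 settings. The sign changed for the cytokines with the stricter background (0.06 against −0.23), and for the myeloid and the stromal markers, whose medians lay near 0, under some settings. The medians of the cell cycle, quiescence, interferon and guanylate-binding lists kept their sign. Of the counts of list members past the threshold, 604 stayed within 1.5 times the value given and 54 did not. Of the differences of named genes 1468 moved by less than the SD of the chemosensory receptor genes and 7 by more, and each gene past 1.5-fold kept its sign. Near background the depth of signal limits a difference: Ifit3b had −0.50 with values raised to the background.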

Other observations

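Beyond the lists, 2 gene families were looked at after their members were seen among the lowest genes, so they are a description. The Ifi200 family encodes interferon-inducible DNA sensors and regulators. Of 9 members measured 6 were compared, and 4 were lower with sAb+LatA than with sAb at 24 h and 0 higher (median −0.93). Over all genes, 1.97% were lower and 1.81% higher. One of the 4, Ifi205, was not above background with sAb+LatA (4.03) and was at 4.96 with sAb, at least 1.14-fold lower, and with values raised to the background 3 were lower and the median was −0.71. Ifi208 was at 7.75 with sAb+LatA, 7.74 with iAb and 8.66 with sAb, and Ifi213 at 7.22 with sAb+LatA, 7.35 with iAb and 8.16 with sAb. Ifi209 was at 9.76 with sAb+LatA and 10.27 with sAb, within 1.5-fold, and Mndal at 7.89 with sAb+LatA and 8.07 with sAb. These genes are close relatives and their probes may not separate them fully.

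MHC class II genes present peptides on B cells and other antigen-presenting cells. Of 9 measured members 8 were compared, with 4 lower, 0 higher and a median of −0.48, where 1.97% of all genes were lower. H2-Aa was at 5.79 with sAb+LatA, 6.19 with iAb and 6.38 with sAb, and H2-DMb2 at 5.32 with sAb+LatA, 6.40 with iAb and 5.92 with sAb. H2-Eb1 was at 6.66 with sAb+LatA and 6.41 with sAb, and Ciita, the class II transactivator, at 5.85 with sAb+LatA and 5.89 with sAb. Of 9 B cell markers measured, the summed linear level was 289.0 with sAb+LatA, 335.5 with iAb and 362.0 with sAb, in a range of 257.0 to 362.0 over the 8 arrays, and their part in these differences was not tested.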
